A study of Mus musculus with 12 samples.

Results

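The genes described here are 7 replication-dependent histone genes, measured in total RNA of mouse macrophages. They are the rows of the deposited table that are protein-coding and whose symbol starts with Hist1h to Hist4h, 7 of 32246 genes. Hist1h2an and Hist1h2ao encode histone H2A, Hist1h2bp, Hist1h2bq and Hist1h2br encode H2B, and Hist1h4m and Hist1h4n encode H4. The table gives the other 53 protein-coding replication-dependent histone genes, matched by identifier to GENCODE M21, under newer symbols such as H1f2 and H4c6, so they did not meet the rule and served only for comparison. No H1 or H3 gene is among the 7.

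Histones are the proteins around which DNA is wound, with H2A, H2B, H3 and H4 forming the core of the nucleosome and H1 binding the linker. Replication-dependent histone genes are transcribed mainly in S phase, and most of their mRNAs end in a conserved stem-loop in place of a poly(A) tail. The stem-loop is bound by SLBP, and the transcript is cut after it by a complex that includes the U7 small nuclear RNA. Total RNA libraries can hold such transcripts, which selection for poly(A) would largely miss.

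All cells were macrophages differentiated from bone marrow with 50 ng/mL GM-CSF over 7 days. For 24 h, one group then received plasminogen (PLG) exposed to EACA, a lysine analogue, and to RNases (PLG+EACA+RNase), another received PLG exposed to EACA without RNases (PLG+EACA), and the third was left untreated, with 4 libraries in each. Neither EACA nor plasminogen was given by itself in any of these groups, and none received RNases without plasminogen. It is not stated whether libraries are from separate animals or cultures, so p-values here reflect the spread of these samples and nothing wider. The title of the study names the small RNA cargo of plasminogen as its subject, and PLG+EACA+RNase against PLG+EACA is the comparison that bears on it. In that comparison an effect of the RNases themselves cannot be told apart from one of the RNA cargo.

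The 7 genes lie within 50.7 kb of chromosome 13 (GRCm38), between 21786826 and 21837530. In order of position they are Hist1h2an (chr13:21786826-21787218, minus strand), Hist1h2bp (chr13:21787461-21789213, plus), Hist1h2bq (chr13:21806612-21810197, minus), Hist1h2ao (chr13:21810465-21810944, plus), Hist1h4m (chr13:21811746-21812147, plus), Hist1h4n (chr13:21831767-21832196, minus) and Hist1h2br (chr13:21833743-21837530, plus). Hist1h2an, Hist1h2ao, Hist1h4m and Hist1h4n are single-exon genes, whereas Hist1h2bp has a model of 2 exons and Hist1h2bq and Hist1h2br have models of up to 3.

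**Figure D1:**
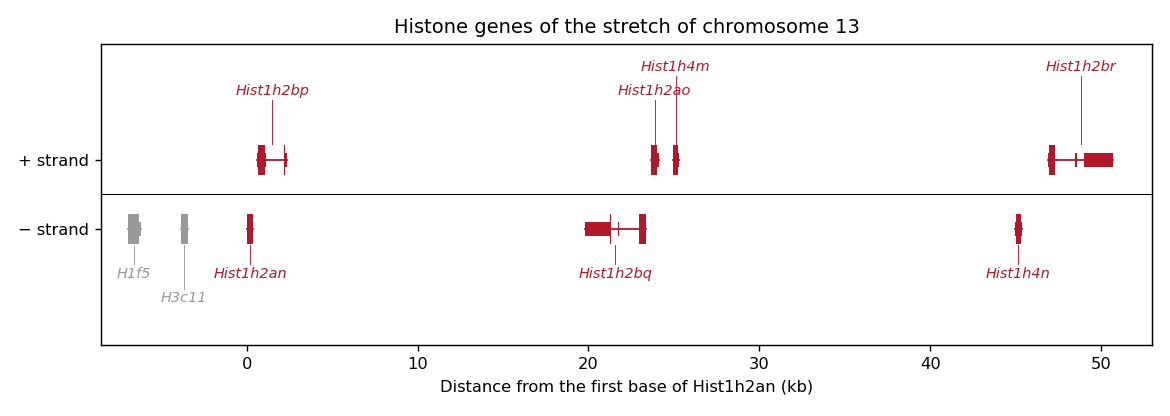
Positions of the 7 genes (red) and the neighbouring H1f5 and H3c11 (grey), as distance in kb from the first base of Hist1h2an, with the plus strand above the line and the minus strand below. Tall boxes are coding sequence, low boxes untranslated exon sequence and thin lines introns; the 7 genes span 50.7 kb.

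The stem-loops are shown because they check the label of these genes against their sequence. The histone 3′ stem-loop motif, whose 16 bases are those in capitals with the third and the fourth base and their partners in the stem left free, was searched on the sense strand of the GENCODE M21 transcript models. It was found in a model of 4 of the 7 genes. Each line gives the 24 bases at GRCm38 from 5′ to 3′ on the strand of the gene, written as DNA, with the 16 bases of the stem and loop in capitals. The Hist1h2bp site is chr13:21787918-21787941 on the plus strand, that of Hist1h2ao chr13:21810893-21810916 on the plus strand, that of Hist1h4m chr13:21812124-21812147 on the plus strand, and that of Hist1h4n chr13:21831795-21831818 on the minus strand.
Hist1h2bp: acaaaGGCTCTTTTCAGAGCCacc
Hist1h2ao: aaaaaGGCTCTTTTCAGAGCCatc
Hist1h4m: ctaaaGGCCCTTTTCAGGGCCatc
Hist1h4n: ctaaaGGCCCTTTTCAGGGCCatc
The Hist1h4m and Hist1h4n sites were identical over the 24 bases, and those of the H2A and H2B genes differed from them by 1 base pair of the 16-base stem-loop and in the flanking bases. The motif was in 57.1% of the 7 genes, 50.9% of the 53 other replication-dependent histone genes (27 genes) and 0.0405% of the 32096 remaining genes (13 genes).

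The other 3 genes had no such motif in their models. The Hist1h2an model, with 390 coding bases of 393, ends at the stop codon, so the models say nothing of its 3′ end. Hist1h2bq and Hist1h2br each had a spliced model, Hist1h2bq-202 and Hist1h2br-203, with the polyadenylation signal AATAAA in the last 60 bases, and so did Hist1h2bp in its second model, Hist1h2bp-202. That signal was thus in 3 of the 7 genes (42.9%), against 11 of the 53 other histone genes (20.8%) and 50.7% of the remaining genes. In these models Hist1h2bp was the only gene of the 7 with a stem-loop in one model and AATAAA near the end of another. The single-exon models Hist1h2bq-201 and Hist1h2br-202, with 378 coding bases of 381, also end at the stop codon. Whether a stem-loop follows it in Hist1h2bq and Hist1h2br is therefore not shown by the models.

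The genes are also close copies of one another. The coding sequences of Hist1h4m and Hist1h4n were identical over all 309 bases. Over the 402 bases of Hist1h4m-201, to which Hist1h4n-201 (430 bases) was aligned, the models differed by 1 substitution, G36A, counted from 1 at the 5′ end of Hist1h4m-201, in the 5′ untranslated region. The coding sequences of Hist1h2bq and Hist1h2br were identical over 378 bases. Hist1h2bp differed from Hist1h2bq at 6 of 378 coding bases, and Hist1h2an from Hist1h2ao at 5 of 390.

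As a measure of how much of each gene a short read can tell from others, all windows of 50 bases in its models were looked for, on both strands, in the models of every other gene of GENCODE M21. Windows found in no other gene made up 10.2% of Hist1h4m, 14.4% of Hist1h4n, 14.2% of Hist1h2an, 6.5% of Hist1h2ao, 2.68% of Hist1h2bq and 11.3% of Hist1h2br. Hist1h2bp stood apart at 55.9%. The median of the 7 was 11.3%, against 54.2% in the 53 other histone genes, and with 100-base windows it was 13.6% against 69.3%. Of 353 windows of Hist1h4m, 317 also occurred in Hist1h4n. The H2A genes shared most with genes outside the 7, Hist1h2ao 403 of 431 windows with Hist1h2ap and Hist1h2an 277 of 344 with Hist1h2ah. How reads that matched several genes were counted, and whether strand was used, is not given in the sources used here, so the split of reads among the copies is uncertain, and least so for Hist1h2bp. Antisense miRNA genes of the annotation also overlap Hist1h2an and Hist1h2ao.

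The bases before the starts of 4 genes are shown to set the copies side by side there. The windows are the 100 bases before the RefSeq start (GRCm38.p6), 5′ to 3′ on the strand of the gene, and all 7 genes matched RefSeq. Capitals mark CCAAT, or ATTGG where it lies on the other strand, and TATAAA.
Hist1h4m (chr13:21811646-21811745, plus): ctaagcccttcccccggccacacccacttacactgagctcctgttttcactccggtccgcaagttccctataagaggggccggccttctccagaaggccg
Hist1h2bp (chr13:21787388-21787487, plus): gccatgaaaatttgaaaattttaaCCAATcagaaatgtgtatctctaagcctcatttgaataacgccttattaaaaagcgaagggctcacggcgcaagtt
Hist1h2bq (chr13:21810200-21810299, minus): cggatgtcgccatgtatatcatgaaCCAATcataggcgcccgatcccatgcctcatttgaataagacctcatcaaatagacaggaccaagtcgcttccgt
Hist1h2an (chr13:21787249-21787348, minus): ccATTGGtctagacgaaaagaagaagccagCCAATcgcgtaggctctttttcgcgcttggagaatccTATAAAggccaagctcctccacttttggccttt
The window of Hist1h2br was identical to that of Hist1h2bq over all 100 bases, and those of Hist1h4m and Hist1h4n shared a run of 99. The longest run shared by Hist1h2an and Hist1h2ao was 12 bases, but these 2 windows are out of register. The Hist1h2ao window ends at 21810366, well before the deposited start of the gene at 21810465. That of Hist1h2an begins at 21787249, close to the deposited end at 21787218 on the minus strand. Neither the shared run nor the motifs below therefore compare the same stretch of these 2 genes. The Hist1h2bp window ends at 21787487, past the deposited start of that gene at 21787461, and so includes some bases of the gene. On either strand, CCAAT was in 5 of the 7 windows, those of the H2A and H2B genes, against 18.9% of 32851 promoters. TATAAA was in the Hist1h2an window, against 5.56% of promoters, and the octamer ATTTGCAT was in none of the 7, against 0.645%.

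The H4 pair carried nearly all of the signal. Levels are given as FPKM, fragments per kilobase of gene length and per 1000000 counted fragments, as the authors deposited them. Over the 12 libraries Hist1h4m averaged 7.71 FPKM and Hist1h4n 5.09 FPKM, ranks 24 and 33 among the 60 replication-dependent histone genes. Hist1h2bp averaged 0.471, Hist1h2an 0.453, Hist1h2ao 0.188, Hist1h2bq 0.0313 and Hist1h2br 0.0169 FPKM, at ranks 53 to 59. In recovered reads, Hist1h4m had 685 and Hist1h4n 482 over all 12 libraries, Hist1h2bp 74, Hist1h2an 39, Hist1h2ao 20, Hist1h2bq 14 and Hist1h2br 9. The H4 pair held 87.1% to 94.2% of the reads of the 7 genes in PLG+EACA+RNase libraries, 85.7% to 94.3% in PLG+EACA libraries and 84.4% to 86.9% in untreated libraries.

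**Figure D2:**
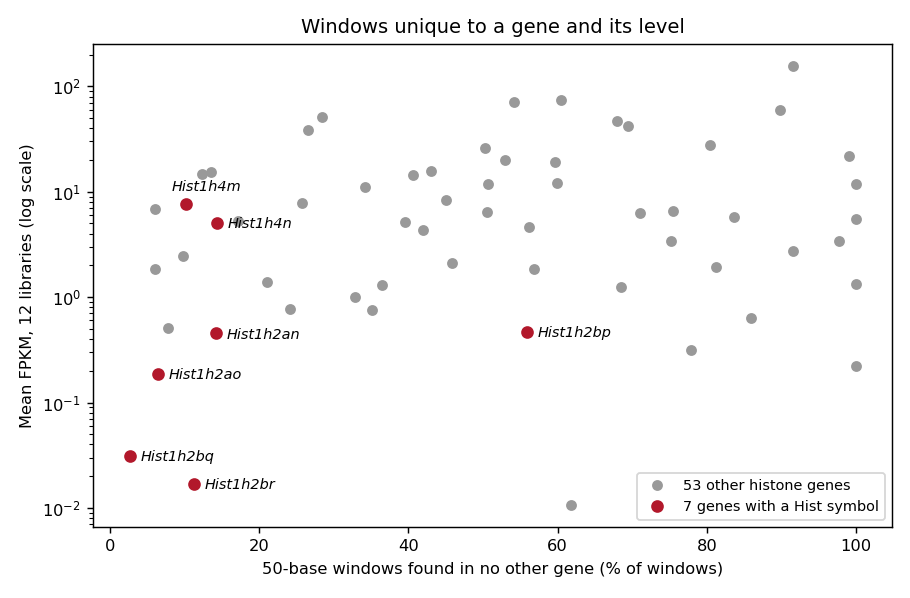
Mean FPKM over 12 libraries (log scale) against the percentage of 50-base windows found in no other gene, for the 7 genes (red, named) and the 53 other replication-dependent histone genes (grey). Of the 7, 6 lie at 14.4% or less, and the H4 pair lies above the other 5 in level.

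Both H4 genes fell in both comparisons with untreated cells, by 1.22-fold to 1.67-fold, and Hist1h2bp, the gene with the most sequence of its own, fell by 1.76-fold with PLG+EACA+RNase and 1.63-fold with PLG+EACA where genes of low level were tested as well. Over all genes tested, 48.4% were called lower with PLG+EACA+RNase and 53.4% with PLG+EACA against untreated cells (30.1% and 34.6% with genes of low level), so being lower was the common outcome and says little of these genes in particular. No difference between PLG+EACA+RNase and PLG+EACA passed the test for these 3 genes. Only the fall of Hist1h4n with PLG+EACA+RNase, and that of Hist1h2bp in both comparisons, also passed after scaling the libraries to a common median. In bulk RNA, fewer cells in S phase and less histone RNA per cell cannot be told apart.

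The test was limma on log2(FPKM + 0.5) over the 11165 genes with at least 1 FPKM in at least 4 of 12 libraries, two-sided, with Benjamini-Hochberg adjustment over all genes and a threshold of 0.05. Fold changes are on that log2 scale, which understates the change of genes with low values. Hist1h4m and Hist1h4n passed the filter, with at least 1 FPKM in all 12 libraries, and the other 5 genes did not. Both comparisons with untreated cells use the same 4 untreated libraries.

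Hist1h4m had 7.56, 8.41, 6.15 and 6.695 FPKM in replicates 1 to 4 of PLG+EACA+RNase cells, 7.65, 6.69, 6.27 and 7.38 FPKM in those of PLG+EACA cells, and 10.53, 9.09, 7.29 and 8.74 FPKM in those of untreated cells. Each of these values rests on 32 to 62 reads in PLG+EACA+RNase, 45 to 61 reads in PLG+EACA and 54 to 92 reads in untreated libraries. The groups overlapped, because untreated replicate 3 was lower than 2 libraries of each plasminogen group. The means were 7.20 ± 0.992 FPKM with PLG+EACA+RNase, 7.00 ± 0.634 with PLG+EACA and 8.91 ± 1.33 in untreated cells (SD, n = 4 each).

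The log2 fold change of Hist1h4m was -0.29 with PLG+EACA+RNase against untreated cells (SE 0.113, limma adjusted p = 0.0414) and -0.32 with PLG+EACA against untreated cells (SE 0.113, limma adjusted p = 0.0236). Between PLG+EACA+RNase and PLG+EACA it was 0.03 (SE 0.113, limma adjusted p = 0.852). The median of all genes tested was -0.20, -0.26 and 0.04 in these comparisons, so that Hist1h4m lay 0.08 and 0.06 below the median gene in the comparisons with untreated cells. After median-of-ratios scaling, which moved those medians to -0.04, -0.00 and -0.05, Hist1h4m was not called, at -0.11 with PLG+EACA+RNase (limma adjusted p = 0.451) and -0.05 with PLG+EACA against untreated cells (limma adjusted p = 0.755).

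Hist1h4n had 5.82, 3.03, 4.13 and 2.82 FPKM in replicates 1 to 4 of PLG+EACA+RNase cells, 4.05, 3.59, 6.64 and 4.115 FPKM in those of PLG+EACA cells, and 6.42, 7.71, 6.70 and 6.09 FPKM in those of untreated cells. In these unscaled values all 4 PLG+EACA+RNase libraries were below all 4 untreated libraries, while PLG+EACA replicate 3 lay within the untreated range. Divided by median-of-ratios factors of 0.9741 and 1.135, PLG+EACA+RNase replicate 1 is no longer below untreated replicate 1. The values rest on 22 to 51 reads in PLG+EACA+RNase, 31 to 51 reads in PLG+EACA and 44 to 60 reads in untreated libraries. The means were 3.95 ± 1.37 FPKM with PLG+EACA+RNase, 4.6 ± 1.38 with PLG+EACA and 6.73 ± 0.699 in untreated cells (SD, n = 4 each).

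The log2 fold change of Hist1h4n was -0.74 with PLG+EACA+RNase against untreated cells (SE 0.205, limma adjusted p = 0.00713) and -0.53 with PLG+EACA against untreated cells (SE 0.205, limma adjusted p = 0.0356). Relative to the median gene these are -0.54 and -0.28. With PLG+EACA+RNase against PLG+EACA it was -0.21 (SE 0.205, limma adjusted p = 0.493). After median-of-ratios scaling the fall with PLG+EACA+RNase was still called, at -0.57 (limma adjusted p = 0.0325), and that with PLG+EACA was not, at -0.27 (limma adjusted p = 0.293). Whether the 2 H4 copies changed by different amounts was not tested.

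Summed, Hist1h4m and Hist1h4n ranged from 9.52 to 13.4 FPKM in PLG+EACA+RNase libraries, from 10.3 to 12.9 FPKM in PLG+EACA libraries and from 14 to 16.9 FPKM in untreated libraries. In these unscaled sums every plasminogen library was below every untreated library, and the plasminogen groups overlapped each other. Divided by median-of-ratios factors, 0.9741 for PLG+EACA+RNase replicate 1, 0.9393 for PLG+EACA replicate 3 and 1.129 for untreated replicate 3, the groups all overlap. The share of all genes that separate in this way was not counted.

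Of the 2 genes tested with the main filter, both were called lower in each comparison with untreated cells. In the comparison of PLG+EACA+RNase with PLG+EACA, limma called 0 of the 2, with 0 at an unadjusted p under 0.05, where 20.8% of all genes were called. After median-of-ratios scaling, 30.2% of all genes were called lower with PLG+EACA+RNase and 25.2% with PLG+EACA against untreated cells. Of the genes called, scaling moved the share that was higher to 45.3%, against 24.8% without it, with PLG+EACA+RNase, and to 52.4%, against 21.8% without it, with PLG+EACA, both against untreated cells. Between PLG+EACA+RNase and PLG+EACA it moved that share from 58.0% to 31.0%, so most called genes were higher without scaling and lower with it.

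**Figure D3:**
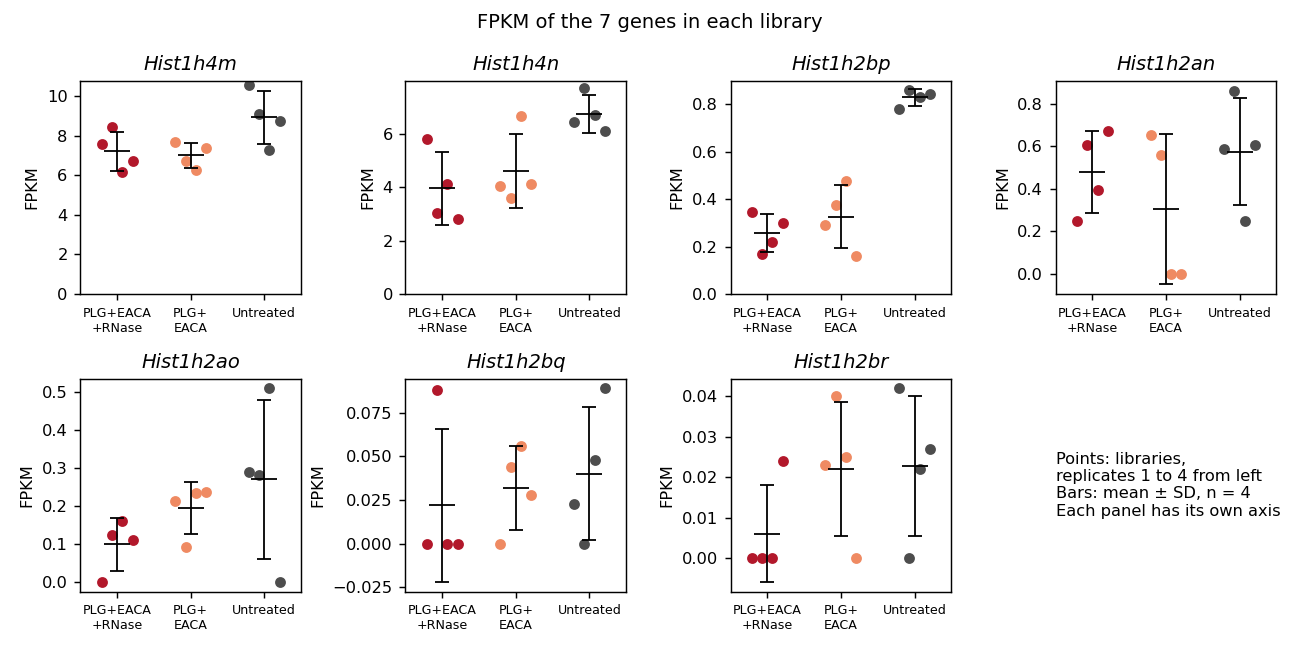
FPKM of the 7 genes in each library (points, replicates 1 to 4 from left to right within a group), with mean and SD of 4 libraries, for PLG+EACA+RNase, PLG+EACA and untreated cells; each panel has its own axis. Untreated libraries of Hist1h2bp (0.782 to 0.862 FPKM) lie above all libraries of both plasminogen groups, whereas the groups overlap for Hist1h4m, Hist1h2an, Hist1h2ao, Hist1h2bq and Hist1h2br. For Hist1h4n, PLG+EACA replicate 3 (6.64 FPKM) lies within the untreated range, and all PLG+EACA+RNase libraries lie below that range. The values shown are not scaled between libraries.

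Hist1h2bp, an H2B gene, had 0.347, 0.168, 0.219 and 0.299 FPKM in replicates 1 to 4 of PLG+EACA+RNase cells, 0.290, 0.375, 0.476 and 0.162 FPKM in those of PLG+EACA cells, and 0.782, 0.862, 0.831 and 0.843 FPKM in those of untreated cells. In these unscaled values all 8 plasminogen libraries were below all 4 untreated libraries. The share of all genes that separate in this way was not counted. The reads behind these values were few, with 5, 2, 2 and 4 in PLG+EACA+RNase, 4, 6, 6 and 2 in PLG+EACA and 12, 9, 12 and 10 in untreated libraries. Summed over libraries, the rate was 0.188 reads per 1000000 counted reads (RPM) with PLG+EACA+RNase (exact Poisson 95% interval 0.1 to 0.322), 0.232 with PLG+EACA (0.138 to 0.367) and 0.583 in untreated cells (0.422 to 0.785). These intervals cover counting error only.

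Hist1h2bp was tested with a lower filter of 0.1 FPKM in at least 4 libraries, which 19666 genes passed and Hist1h2bp reached in all 12 libraries. The log2 fold change was -0.82 with PLG+EACA+RNase against untreated cells (SE 0.122, limma adjusted p = 0.000178) and -0.70 with PLG+EACA against untreated cells (SE 0.122, limma adjusted p = 0.000513). With PLG+EACA+RNase against PLG+EACA it was -0.12 (SE 0.122, limma adjusted p = 0.562), and 14.6% of genes were called in that comparison. With this filter the median of all genes was -0.08 with PLG+EACA+RNase and -0.16 with PLG+EACA against untreated cells. With median-of-ratios scaling in addition, an alternative chosen after seeing the data, Hist1h2bp was called at -0.71 with PLG+EACA+RNase (limma adjusted p = 0.000663) and -0.56 with PLG+EACA against untreated cells (limma adjusted p = 0.00362), where 18.6% and 15.8% of genes were called lower. The ratio of its RPM to untreated cells was 0.323 with PLG+EACA+RNase (exact 95% interval 0.159 to 0.611) and 0.398 with PLG+EACA (0.216 to 0.705), counting error only.

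Under the same lower filter Hist1h4n was called with PLG+EACA+RNase (limma adjusted p = 0.011) and not with PLG+EACA (limma adjusted p = 0.0543), and Hist1h4m the other way round, with limma adjusted p = 0.0578 with PLG+EACA+RNase and limma adjusted p = 0.0367 with PLG+EACA, all against untreated cells. The log2 fold changes of both H4 genes are the same under both filters.

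The other H2B genes, Hist1h2bq and Hist1h2br, were at the limit of detection. Hist1h2bq had 0, 3, 0 and 0 reads in replicates 1 to 4 of PLG+EACA+RNase, 0, 2, 2 and 1 in those of PLG+EACA and 1, 0, 2 and 3 in those of untreated cells. Hist1h2br had 0, 0, 0 and 1 reads with PLG+EACA+RNase, 1, 2, 1 and 0 with PLG+EACA and 2, 0, 1 and 1 in untreated cells. The groups overlapped for both genes, and no library had more than 3 reads of either. A library with 0 reads allows up to 3 reads, which is 0.0657 to 0.115 FPKM of Hist1h2bq and 0.0598 to 0.105 FPKM of Hist1h2br across the 12 libraries, so differences of their size were not detectable at this depth. Their deposited lengths, 2015 and 2212 bases, include long untranslated exons, whereas Hist1h2bp has 706 bases. Only 2.68% of the 50-base windows of Hist1h2bq and 11.3% of those of Hist1h2br were found in no other gene. The part of shared reads in their low counts was not tested.

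Hist1h2an, an H2A gene, had 0.25, 0.604, 0.393 and 0.671 FPKM in replicates 1 to 4 of PLG+EACA+RNase cells, 0.652, 0.561, 0 and 0 FPKM in those of PLG+EACA cells, and 0.585, 0.861, 0.249 and 0.606 FPKM in those of untreated cells. PLG+EACA replicates 3 and 4 had no read of it, which allows up to 0.427 and 0.436 FPKM, and the other 10 libraries had 2 to 5 reads. Under the lower filter no comparison was called for Hist1h2an, with a log2 fold change of -0.13 with PLG+EACA+RNase (limma adjusted p = 0.768) and -0.50 with PLG+EACA against untreated cells (limma adjusted p = 0.203). With PLG+EACA+RNase against PLG+EACA it was 0.38 (limma adjusted p = 0.422).

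Hist1h2ao, the other H2A gene, had 0, 1, 1 and 1 reads with PLG+EACA+RNase, 2, 1, 2 and 2 with PLG+EACA and 3, 2, 5 and 0 in untreated cells. Its mean was 0.0988 ± 0.0693 FPKM with PLG+EACA+RNase, 0.194 ± 0.0689 with PLG+EACA and 0.270 ± 0.209 in untreated cells (SD, n = 4 each). Untreated replicate 4, without a read, lay at the bottom of its group, and the groups overlapped. The log2 fold change was -0.33 with PLG+EACA+RNase (limma adjusted p = 0.171) and -0.11 with PLG+EACA against untreated cells (limma adjusted p = 0.673), and -0.22 between PLG+EACA+RNase and PLG+EACA (limma adjusted p = 0.457). Leaving out 1 library at a time under the lower filter was chosen after seeing the data. PLG+EACA+RNase against untreated cells was called for Hist1h2ao in 1 of these 12 fits and not in the other 11. That fit left out untreated replicate 4, the untreated library without a read, and gave -0.52 (limma adjusted p = 0.00983). Summed reads were 3 with PLG+EACA+RNase and 10 in untreated cells. The ratio of RPM was 0.32 (exact 95% interval 0.0566 to 1.24), counting error only.

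Summed, the 7 genes held 4.49 to 5.88 RPM in PLG+EACA+RNase libraries, 4.94 to 5.99 in PLG+EACA libraries and 6.89 to 8.05 in untreated libraries. In these unscaled sums the plasminogen groups overlapped each other and not the untreated group. Divided by median-of-ratios factors of 0.9393 and 1.129, PLG+EACA replicate 3 lies above untreated replicate 3. The share of all genes that separate without scaling was not counted. The log2 ratio of the group means of this sum was -0.57 for PLG+EACA+RNase and -0.50 for PLG+EACA against untreated cells, and -0.08 for PLG+EACA+RNase against PLG+EACA. Of all reads of the 60 replication-dependent histone genes, the 7 genes held 0.648% ± 0.0447 with PLG+EACA+RNase, 0.734% ± 0.089 with PLG+EACA and 0.744% ± 0.0484 in untreated cells (SD, n = 4 each), and these ranges overlapped.

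The 53 other replication-dependent histone genes summed to 734 to 898 RPM in PLG+EACA+RNase libraries, 684 to 798 in PLG+EACA libraries and 974 to 1026 in untreated libraries. Of the 46 that were tested, 24 were lower with PLG+EACA+RNase (median log2 fold change -0.37), and 25 were lower and 1, H4c3, higher with PLG+EACA (median -0.43), against untreated cells, where 48.4% and 53.4% of all genes tested were lower. With PLG+EACA+RNase against PLG+EACA, H1f2 and H4f16 were higher and the others did not pass (median 0.04). After median-of-ratios scaling the counts were 2 higher and 11 lower with PLG+EACA+RNase (median -0.20), 3 higher and 11 lower with PLG+EACA (median -0.15), and 2 lower with PLG+EACA+RNase against PLG+EACA, where H1f2 and H4f16 no longer passed (limma adjusted p = 0.085 and 0.118).

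Among the 10 other H4 genes tested, 3 were lower with PLG+EACA+RNase and 5 lower and 1 higher with PLG+EACA against untreated cells, with medians of -0.16 and -0.36. The highest of them, H4c6, averaged 74.3 ± 10.2 FPKM with PLG+EACA+RNase, 71.8 ± 13.8 with PLG+EACA and 78.8 ± 2.02 in untreated cells (SD, n = 4 each), and was not called with PLG+EACA+RNase (limma adjusted p = 0.512) or PLG+EACA (limma adjusted p = 0.279) against untreated cells. H4c3 was higher with PLG+EACA than in untreated cells at a log2 fold change of 0.21 (limma adjusted p = 0.0393). The log2 fold changes of Hist1h4n, -0.74 and -0.53, lay below the median of the other H4 genes in both comparisons, a difference that was not tested. H4c6, H4c3, H1f2 and H4f16 were picked with their values known.

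**Figure D4:**
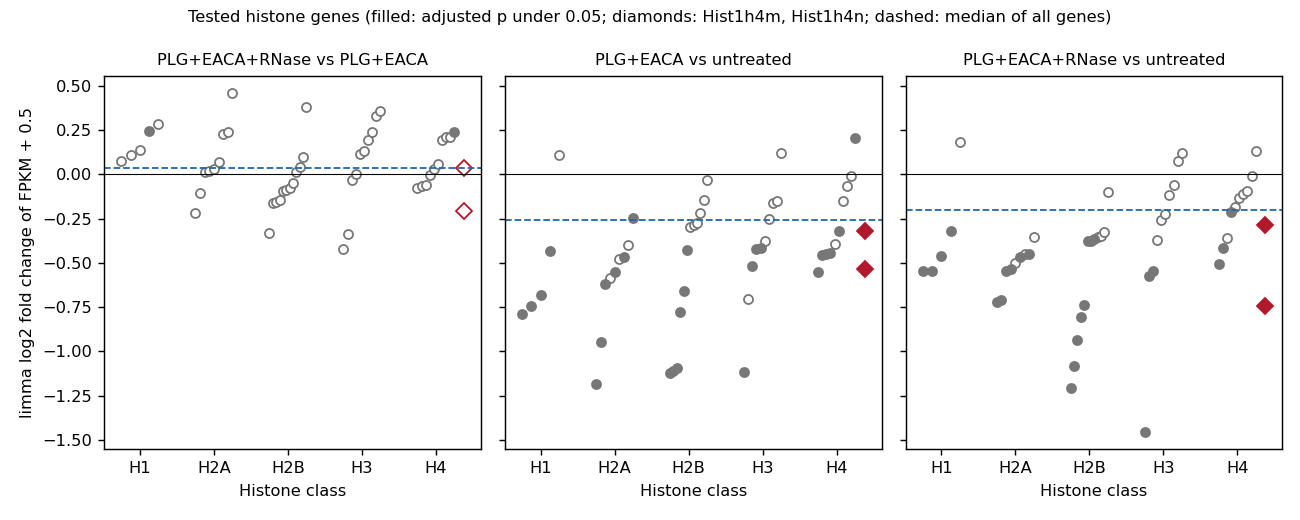
limma log2 fold change of FPKM + 0.5 for Hist1h4m and Hist1h4n (diamonds) and the 46 other tested replication-dependent histone genes (circles), by histone class, in each comparison; filled symbols passed the adjusted p threshold of 0.05, and the dashed line is the median of all genes tested (0.04, -0.26 and -0.20 from left to right). Both diamonds are filled and below the dashed line in the comparisons with untreated cells, and open in the comparison of PLG+EACA+RNase with PLG+EACA; after median-of-ratios scaling only that of Hist1h4n with PLG+EACA+RNase was called.

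Genes that make, process or use histone mRNA were read beside these values. Of the list of histone 3′ end processing and decay, 18 of 19 genes were tested, and 1 was higher and 13 lower with PLG+EACA+RNase, and 2 higher and 14 lower with PLG+EACA, against untreated cells (medians -0.34 and -0.41). Slbp, which encodes the stem-loop-binding protein, averaged 1.60 ± 0.139 FPKM with PLG+EACA+RNase and 2.96 ± 0.210 FPKM in untreated cells (SD, n = 4 each), a log2 fold change of -0.72 (limma adjusted p = 6.51e-06). In PLG+EACA libraries Slbp ranged from 1.76 to 2.08 FPKM. Ncbp2, a subunit of the nuclear cap-binding complex, fell by 0.81 with PLG+EACA+RNase (limma adjusted p = 2.34e-06) and by 0.76 with PLG+EACA (limma adjusted p = 3.11e-06) on the log2 scale, and Srrt, a partner of that complex, fell by 0.80 with PLG+EACA+RNase (limma adjusted p = 1.89e-06) and by 0.60 with PLG+EACA (limma adjusted p = 1.34e-05). Upf1, a helicase that takes part in histone mRNA decay, fell by 0.46 with PLG+EACA (limma adjusted p = 1.04e-05). After scaling the list had 3 higher and 8 lower with PLG+EACA+RNase, and 3 higher and 9 lower with PLG+EACA. Of all genes tested, 48.4% and 53.4% were lower in these comparisons without scaling, and 30.2% and 25.2% with it.

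Between PLG+EACA+RNase and PLG+EACA, 2 genes of that list were higher and 3 lower, where 20.8% of all genes tested were called. Cpsf2, a subunit of the cleavage complex, averaged 9.56 ± 0.737 FPKM with PLG+EACA+RNase and 12.1 ± 0.0702 FPKM with PLG+EACA (limma adjusted p = 0.00413). Sympk, the scaffold of the same complex, averaged 17.6 ± 0.672 FPKM with PLG+EACA+RNase and 14.9 ± 1.20 FPKM with PLG+EACA (limma adjusted p = 0.0152). Tut7, an enzyme that adds uridines to RNA ends, averaged 7.08 ± 0.876 FPKM with PLG+EACA+RNase and 9.16 ± 0.941 FPKM with PLG+EACA (limma adjusted p = 0.0155).

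All 20 histone chaperones and deposition factors were tested. Against untreated cells, 2 were higher and 14 lower with PLG+EACA+RNase, and 2 were higher and 17 lower with PLG+EACA. After scaling 3 were higher in each, with 10 lower with PLG+EACA+RNase and 7 with PLG+EACA. Of all genes tested, 48.4% and 53.4% were lower in these comparisons without scaling, and 30.2% and 25.2% with it. Daxx, a chaperone of the variant H3.3, averaged 67.2 ± 10.6 FPKM with PLG+EACA and 17.7 ± 1.80 FPKM in untreated cells, a log2 fold change of 1.89 (limma adjusted p = 2.65e-06). With PLG+EACA+RNase Daxx averaged 40.5 ± 12.9 FPKM, -0.76 on the log2 scale against PLG+EACA (limma adjusted p = 0.0145). Asf1b, a chaperone of H3 and H4, averaged 1.84 ± 0.578 FPKM with PLG+EACA+RNase and 4.38 ± 0.193 FPKM in untreated cells (log2 fold change -1.09, limma adjusted p = 5.1e-05). Of 11 tested replication-independent histone variants, 1 was higher and 7 lower in each comparison with untreated cells, beside the same unscaled shares of all genes. The linker histone H1f10 fell by 1.09 with PLG+EACA+RNase (limma adjusted p = 3.29e-05) and by 1.08 with PLG+EACA (limma adjusted p = 3.32e-05).

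Genes of S phase and mitosis were read beside the histone genes. Of 24 tested genes of S phase and DNA replication, 20 were lower with PLG+EACA+RNase and 21 with PLG+EACA against untreated cells (medians -0.61 and -0.68), beside 48.4% and 53.4% of all genes tested, and the others did not pass. After scaling 17 were lower with PLG+EACA+RNase, and 16 were lower and 1 higher with PLG+EACA, beside 30.2% and 25.2% of all genes lower. The 29 genes of this list summed to 98.7 to 113 FPKM in PLG+EACA+RNase libraries, 104 to 117 in PLG+EACA libraries and 157 to 159 in untreated libraries. Rrm2, a subunit of ribonucleotide reductase, averaged 2.88 ± 0.228 FPKM with PLG+EACA+RNase and 7.82 ± 0.330 FPKM in untreated cells (log2 fold change -1.30, limma adjusted p = 2.13e-06). Of 13 tested genes of G2 and mitosis, 12 were lower with PLG+EACA+RNase and 11 with PLG+EACA, beside the same 48.4% and 53.4% of all genes. The 14 genes of that list summed to 35.6 to 46.3 FPKM in PLG+EACA+RNase, 41.6 to 46.4 in PLG+EACA and 53.9 to 64.2 in untreated libraries. The part of cell cycle differences in the histone values was not tested.

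Other RNAs without a poly(A) tail were compared because the stem-loop mRNAs lack one too. Of 5 tested noncoding RNAs of this kind, 1 was lower in each comparison with untreated cells, the Y RNA gene Rny1, at 3.06 ± 0.725 FPKM with PLG+EACA+RNase, 2.99 ± 0.424 with PLG+EACA and 4.98 ± 1.86 in untreated cells (SD, n = 4 each). The limma adjusted p against untreated cells was 0.0329 with PLG+EACA+RNase and 0.027 with PLG+EACA, and after scaling 0.11 and 0.183 in that order. The median log2 fold change of these 5 RNAs was -0.25 with PLG+EACA+RNase and -0.05 with PLG+EACA. Of all genes tested, 48.4% and 53.4% were lower in these comparisons without scaling.

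The 12 libraries held 12940881 to 22677023 counted reads. Summed macrophage markers, 7 genes, reached 3950 to 4470 FPKM in PLG+EACA+RNase, 3950 to 5780 in PLG+EACA and 5190 to 5790 in untreated libraries, and 7 dendritic cell markers, which include Itgax, reached 531 to 584 FPKM in PLG+EACA+RNase, 434 to 571 in PLG+EACA and 602 to 652 in untreated libraries. Neutrophil markers, 7 genes, summed to 23.2 to 56.5 FPKM in PLG+EACA+RNase, 24.6 to 67.8 in PLG+EACA and 13.3 to 55.8 in untreated libraries. Stroma markers, 4 genes, summed to 1.46 to 10.4 FPKM in PLG+EACA+RNase, 1.58 to 15.8 in PLG+EACA and 5.73 to 15.1 in untreated libraries. B and T cell markers, 4 genes each, summed to less than 1 FPKM in every library. Mast cell and basophil markers summed to 1.61 to 17.5 FPKM in PLG+EACA+RNase, 0.298 to 0.838 in PLG+EACA and 0.324 to 2.24 in untreated libraries, with the highest value in PLG+EACA+RNase replicate 2. The calls of Hist1h4n and Hist1h2bp with PLG+EACA+RNase against untreated cells held without that library.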

How the data were processed

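Total RNA libraries of 12 samples, 4 in each of 3 groups, were analysed from 1 table of 32246 genes, whose values are FPKM as deposited by the authors, without scaling between libraries. The genome build is GRCm38.p6, and DESeq2 (1.40.2), STAR (2.7.11a), cutadapt (4.5), featureCounts (2.0.6) and FastQC (0.12.1) are named, without their roles, per the submitters' processing notes. How multi-mapped reads and strand were treated is not given in the sources used here. Groups were taken from the labels of each sample.

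The number of reads was recovered from the deposited FPKM times length, which is a whole multiple of 1 read per gene. At least 98.78% of values of up to 200 reads came within 0.1 of a whole number, and on 12 simulated tables the depth was off by at most 8.28e-05%. Depth was 12940881 to 22677023 reads. Intervals from reads cover counting error only, and chi-square per degree of freedom between libraries of a group was 3.21 to 34.99 over 18 pairs.

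Group means were fitted in R 4.3.3 by limma 3.58.1, using lmFit, then contrasts.fit for 3 comparisons and eBayes with trend. Genes needed an FPKM of at least 1 in 4 libraries, with a pseudocount of 0.5. On data simulated for PLG+EACA against untreated cells, with 10957 genes in the fit, 91.3% of genes changed 0.5-fold, 77.6% changed 2-fold, 44.0% changed 1.5-fold and 27.7% changed 0.667-fold were called. In that simulation 10765 genes were unchanged and all genes had the same dispersion. In the data 7624 of 11165 genes were called in this comparison, so these shares do not carry over to it. Alternatives were pseudocounts of 0.1 and 1, reads per 1000000 counted reads (RPM), filters of 0.1 FPKM and none, median-of-ratios scaling, a replicate block and leaving out each library. Members and lists were chosen with earlier results of these data known. Named are the genes of the rule, and of each list up to 3 called genes with the smallest p in a comparison; H4 genes and examples beyond this were picked with their values known. Of the symbols of the lists, 5 were not matched. Sequences came from GENCODE M21 (GRCm38) and RefSeq (GRCm38.p6), aligned with Biopython 1.88.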

Additional observations from a re-analysis of the deposited data

Results flagged for a closer look

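In 3 of 24 groups of 4 libraries examined for the 7 genes and their sum, 1 library stood far from the other 3. It lay past Dixon's 95% critical value for the gap to the nearest over the range. The rate of about 1 in 20 such groups by chance holds for continuous values and not for groups of 0 to 3 reads. Where 3 libraries are tied at 0, any read in the other is flagged. Hist1h2bq had 0.088 FPKM, or 3 reads, in PLG+EACA+RNase replicate 2 and 0 in the other 3 libraries of that group. Hist1h2br had 0.024 FPKM, or 1 read, in PLG+EACA+RNase replicate 4 and 0 in the other 3. Hist1h2ao had 0.092 FPKM, or 1 read, in PLG+EACA replicate 2, and 0.214 to 0.238 FPKM, or 2 reads, in the other 3. Each of these rests on 1 to 3 reads.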

How the results depend on the processing

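Against untreated cells, 2 histone genes were lower with PLG+EACA+RNase and 2 with PLG+EACA. These were Hist1h4m and Hist1h4n in both. After median-of-ratios scaling 1 (Hist1h4n) and 0 were, and with RPM in place of FPKM 1 (Hist1h4n) was lower with PLG+EACA+RNase. Without a filter, 1 (Hist1h2bp) was lower with PLG+EACA, and the 2 with PLG+EACA+RNase were Hist1h4n and Hist1h2bp. Leaving out 1 library gave 1 to 2 genes lower with PLG+EACA+RNase and 0 to 2 with PLG+EACA. Hist1h4m lost its call with PLG+EACA+RNase in 7 of 12 such fits (without replicates 1, 3 or 4 of that group, PLG+EACA replicate 2, or untreated replicates 1, 2 or 4; adjusted p of these 0.0503 to 0.128) and with PLG+EACA in 4 of 12 (without replicates 2 or 3 of that group, or untreated replicates 1 or 2; adjusted p 0.052 to 0.0768). Hist1h4n kept its call with PLG+EACA+RNase in all 12, with adjusted p of 0.00103 to 0.0231, and lost that with PLG+EACA in 6 (without replicates 1, 2 or 4 of that group, or untreated replicates 1, 2 or 3; adjusted p 0.0555 to 0.0984). Hist1h2bp, with the lower filter, was called against untreated cells in all 12 fits of both comparisons; leaving out libraries under that filter was chosen after seeing the data. RPM gave adjusted p = 0.0781 for Hist1h4m with PLG+EACA+RNase. Without a filter, the adjusted p against untreated cells was 0.0925 with PLG+EACA+RNase and 0.0655 with PLG+EACA for Hist1h4m, and 0.0215 and 0.0999 for Hist1h4n. The cause of these changes was not tested.

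The log2 ratio of the summed reads moved to -0.39 with PLG+EACA+RNase and -0.21 with PLG+EACA against untreated cells under scaling. Without Hist1h4m, the highest gene, it was -0.87 and -0.65, and -0.22 for PLG+EACA+RNase against PLG+EACA. All genes called between PLG+EACA+RNase and PLG+EACA numbered 2324, and 992 to 3228 when 1 library was left out; PLG+EACA+RNase replicates 3 and 2 gave 992 and 1030 and PLG+EACA replicate 4 gave 1448. Scaling reversed Sympk and Cpsf2 with PLG+EACA+RNase against untreated cells, to 0.01 and 0.16.

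Whether replicate numbers pair the samples is not stated, and deviations of same-numbered libraries correlated at -0.176 to 0.332, which does not settle it. With the replicate block, the same 2 histone genes were lower in each comparison with untreated cells. The SE of Hist1h4m was then 0.0742, with limma adjusted p = 0.0076 with PLG+EACA+RNase and 0.00392 with PLG+EACA. For Hist1h4n the limma adjusted p was 0.00732 and 0.0317. All genes called between PLG+EACA+RNase and PLG+EACA numbered 2678 with the block and 2324 without it.

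Few reads limit 5 of the 7 genes, which had at most 12 reads in any library. The parts of depth and of reads shared among copies in these low counts were not tested.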
